A study of Mus musculus with 12 samples.

Results

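The integrated stress response is the programme by which cells slow protein synthesis and switch on rescue genes when amino acids, haem, the endoplasmic reticulum or mitochondria are disturbed. Kinases that sense these states phosphorylate the initiation factor eIF2, which lowers translation in general but raises that of Atf4, a bZIP transcription factor. Atf4, often with C/EBP partners, then drives genes for amino acid supply, for further transcription factors such as Ddit3 (CHOP), and for proteins that end the response or lead to cell death. Control of Atf4 is largely at the level of translation, so its mRNA is a partial readout, while the mRNAs of its targets report its activity.

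The genes described here are 10 core members of this response, taken by symbol from the deposited count table: Atf4, Ddit3, Trib3, Asns, Chac1, Sesn2, Atf5, Atf3, Ppp1r15a and Nupr1. All 10 were found among the 26214 genes of the table, and each had counts. In mm10 the transcription factor genes lie at chr15:80255184-80257545 (Atf4), chr10:127290793-127296291 (Ddit3), chr7:44812256-44816658 (Atf5) and chr1:191170296-191183333 (Atf3). The others lie at chr2:152337425-152344060 (Trib3), chr6:7675165-7693209 (Asns), chr2:119351242-119354326 (Chac1), chr4:132492804-132510456 (Sesn2), chr7:45522917-45526268 (Ppp1r15a) and chr7:126623246-126625470 (Nupr1). The RNA was from a single mouse line of immortalized Leydig cells, mLTC-1, and Leydig cells make the androgens of the testis. In the MSNBA group, 6 libraries came from cells given 100 µM MSNBA for 24 h, a small molecule that the series presents as blocking Glut5, which imports fructose. In the Control group, 6 libraries came from cells given the DMSO vehicle for the same time. The labels do not say whether libraries came from separate cultures, so the spread behind each p-value is that of these libraries and could be technical.

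Library totals ran from 59113 to 657251 counts, and by geometric mean the MSNBA group was 2.14-fold deeper. Control 2 and Control 4 had 77030 and 79770 counts. After a filter on low counts 2614 genes were tested, 7 of the 10 members among them. Chac1, Sesn2 and Atf3 did not pass the filter and are given by their counts. All 9 Leydig cell markers listed had counts, and their summed level was 9703 to 12144 normalized CPM in MSNBA libraries and 9856 to 13996 normalized CPM in Controls, with the highest value in Control 2. Normalized CPM are counts scaled to a common library size over the tested genes. Macrophage markers summed to at most 20.7 normalized CPM in MSNBA libraries and 78.0 normalized CPM in Controls, and were at 0 in Control 2. Endothelial markers reached 14.9 normalized CPM in MSNBA libraries and 65.0 normalized CPM in Controls. Sertoli cell markers summed to 1338 to 1849 normalized CPM in MSNBA libraries and 1363 to 2763 normalized CPM in Controls, with the highest values in Control 2 (2763) and Control 4 (2197), and their part in the results was not tested. Nearly all of this sum was Clu, with 1825 of 1901 counts in MSNBA and 966 of 1000 in Controls. Dhh had 60 counts in MSNBA and 28 in Controls. Sox9, Amh, Wt1 and Rhox5 had 13, 0, 1 and 2 counts in MSNBA and 3, 1, 0 and 2 in Controls. Fibroblast markers were at most 163 normalized CPM in MSNBA libraries and 199 normalized CPM in Controls, and germ cell markers at most 82.6 normalized CPM in MSNBA libraries and 195 normalized CPM in Controls. None of these markers was at 0 over all libraries. Fewer cells of a type and less RNA per cell cannot be told apart in such bulk RNA. Levels are not per length, so the genes are compared between libraries and not with each other.

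Control 2 and Control 4 ran high among the Controls in these genes. The fitted values of the 7 tested members are given with and without them. In each of the 7 tested members both libraries lay above the other 4 Controls, a pattern that 10.1% of all tested genes showed. For Atf4 the margin of Control 2 was small, 298 against 296 normalized CPM in Control 1. The exact 95% Poisson interval cleared the other 4 Controls in 1 of 10 members for Control 2 and in 2 for Control 4. How many of all tested genes did so was not counted, so these counts are a description. Earlier results of these data had already shown Control 2 and Control 4 to be high in stress genes, so that this pattern is a description. Leaving them out is a choice made from the outcome and gives no independent evidence. In the numbering of the library names, Controls 1, 3, 5 and 6 recur at a regular step. Control 2 and Control 4 begin the next run at that step, and MSNBA 3 and MSNBA 5 continue it. What the numbering stands for is not given, and its part in these values was not tested. The group labels were used as given, and no gene here could check them.

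**Figure D1:**
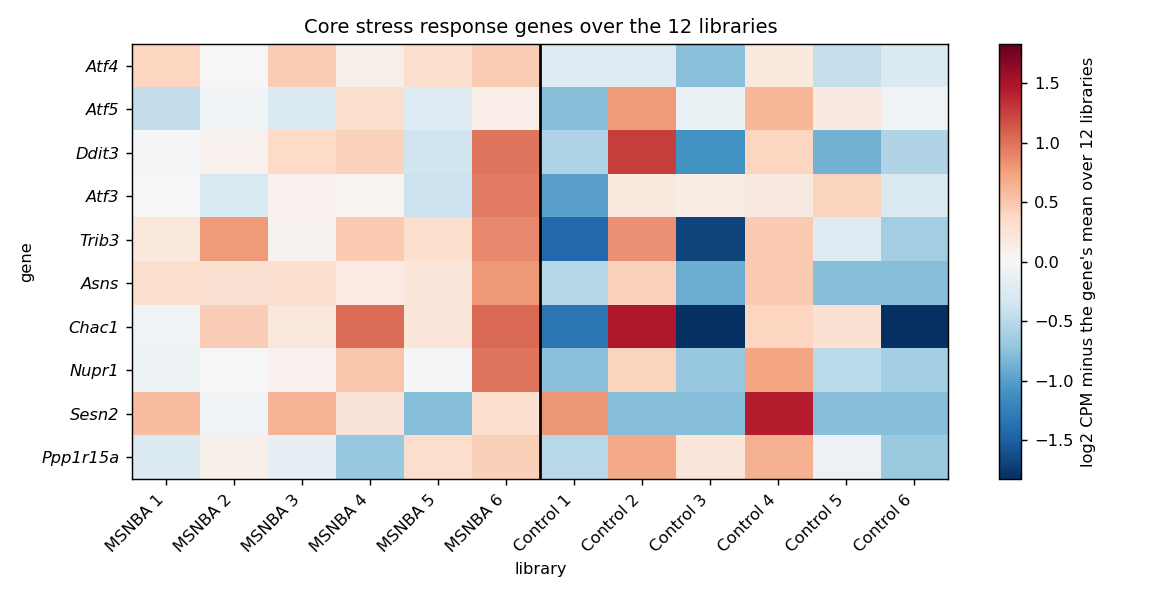
Log2 CPM (prior count 2) of the 10 genes in each library, minus each gene's mean over the 12 libraries, with MSNBA libraries left of the line and Controls right of it. MSNBA 6, Control 2 and Control 4 are red for most genes, whereas Control 3 is blue for Ddit3, Trib3, Asns and Chac1.

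By the edgeR quasi-likelihood test, 0 of the 7 tested members passed an adjusted p of 0.05 in either direction. Over all tested genes 0% were called higher and 0.0765% lower. Atf4, Asns and Trib3 had an unadjusted p below 0.05 with higher values in MSNBA, and 0 members did with lower values, where the background was 4.17% higher and 4.78% lower. DESeq2, which could also fit the 3 rare members, and limma-voom called 0 members as well. Their unadjusted counts were 3 and 4 members higher and 0 lower. The backgrounds were 0.838% higher and 1.18% lower of 19572 genes by DESeq2, and 4.13% higher and 5.78% lower of 2614 genes by limma-voom. The DESeq2 share includes the genes below the low-count filter, so the 2 backgrounds are not comparable. The median log2 fold change of the 7 members was 0.46, against -0.0082 for all tested genes. The members had been chosen with results known, so this median is a description. The adjusted background was 0.0758% lower under the stricter filter and 0.115% lower with the replicate block, where 0 members were called. With 1 library left out, 0 members were called, against 0.144% of genes lower without MSNBA 4, 0.187% lower without Control 1, 0.0359% higher and 0.0718% lower without Control 2, 0.0361% lower without Control 3 and 0% in the other fits. With no filter on low counts 2 members, Atf4 and Trib3, were called higher, against 0.0409% of genes higher and 0.0358% lower.

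Atf4, the central transcription factor, measured 464, 354, 490, 379, 434 and 492 normalized CPM in MSNBA 1 to 6, against 296, 298, 203, 401, 260 and 291 normalized CPM in Control 1 to 6. Control 4 alone among the Controls lay within the MSNBA range, and 4 of the 6 MSNBA libraries lay above all Controls, and 4.4% of tested genes had at least that many. The means were 436 ± 57.7 normalized CPM in MSNBA and 292 ± 64.6 normalized CPM in Controls (SD, n = 6 per group). On the log2 scale edgeR put the fold change at 0.60 (SE 0.16; adjusted p = 0.104), with a 95% interval of 1.21-fold to 1.89-fold. An exact two-sided permutation test on log2 CPM over full library totals gave a difference of 0.59 and an unadjusted p = 0.00649, among the 10 members so tested. Without Control 2 and Control 4 the log2 fold change was 0.71 (adjusted p = 0.0623 by edgeR), and with library depth in the model it was 0.51 (adjusted p = 0.416 by edgeR). That depth fit gave 1.26 for Trib3, 0.60 for Ddit3, 0.82 for Asns and 0.81 for Nupr1, called 0 members, and had a member median of 0.60.

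Atf5, a close relative of Atf4 that is also regulated through translation, had a lower mean in MSNBA, 639 ± 122 normalized CPM, than in Controls, 763 ± 285 normalized CPM (SD, n = 6 per group). It measured 495, 650, 562, 827, 571 and 731 normalized CPM in MSNBA 1 to 6, against 386, 1158, 608, 1026, 758 and 643 normalized CPM in Control 1 to 6. The MSNBA values all lay inside the Control range, whose upper end was set by Control 2 and Control 4. The log2 fold change was -0.23 (SE 0.23, adjusted p = 0.807 by edgeR), with 95% bounds of 0.608-fold and 1.20-fold. With library depth in the model it was 0.20, and without Control 2 and Control 4 it was 0.13, so that its direction was not settled. In RefSeq, Atf5 overlaps Nup62 by 571 bases, and without strand information their shared reads cannot be told apart.

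Ddit3 encodes CHOP, a C/EBP-family factor that promotes cell death under lasting stress. It measured 1167, 1257, 1538, 1599, 929 and 2371 normalized CPM in MSNBA 1 to 6, against 804, 2879, 546, 1571, 650 and 814 normalized CPM in Control 1 to 6. The highest level of all 12 libraries was thus in Control 2. Control 4 lay among the MSNBA libraries, and the other 4 Controls lay below all of them. The exact 95% Poisson interval of Control 2 began at 2467 and that of Control 4 at 1276 normalized CPM, and the highest upper bound of the other 4 Controls was 995 normalized CPM. These intervals cover counting error only. The means were 1477 ± 502 normalized CPM in MSNBA and 1211 ± 893 normalized CPM in Controls (SD, n = 6 per group). The log2 fold change was 0.31 (SE 0.41; adjusted p = 0.866 by edgeR), and its 95% bounds were 0.661-fold and 2.33-fold. The log2 value was 0.74 without Control 2 alone and 0.13 without MSNBA 6, and 1.02 (adjusted p = 0.264 by edgeR) without Control 2 and Control 4.

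Ddit3 was among the most variable genes of the table within groups. Its biological coefficient of variation, the spread between libraries beyond counting error as edgeR estimates it, was 0.489, and 0.459% of tested genes had a higher one. Trib3 (0.363), Nupr1 (0.354) and Atf5 (0.250) followed, with 1.03%, 1.15% and 3.18% of tested genes above them. For Atf4 and Asns the values were 0.131 and 0.128, below the common value of 0.143. Ppp1r15a had 0.153.

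**Figure D2:**
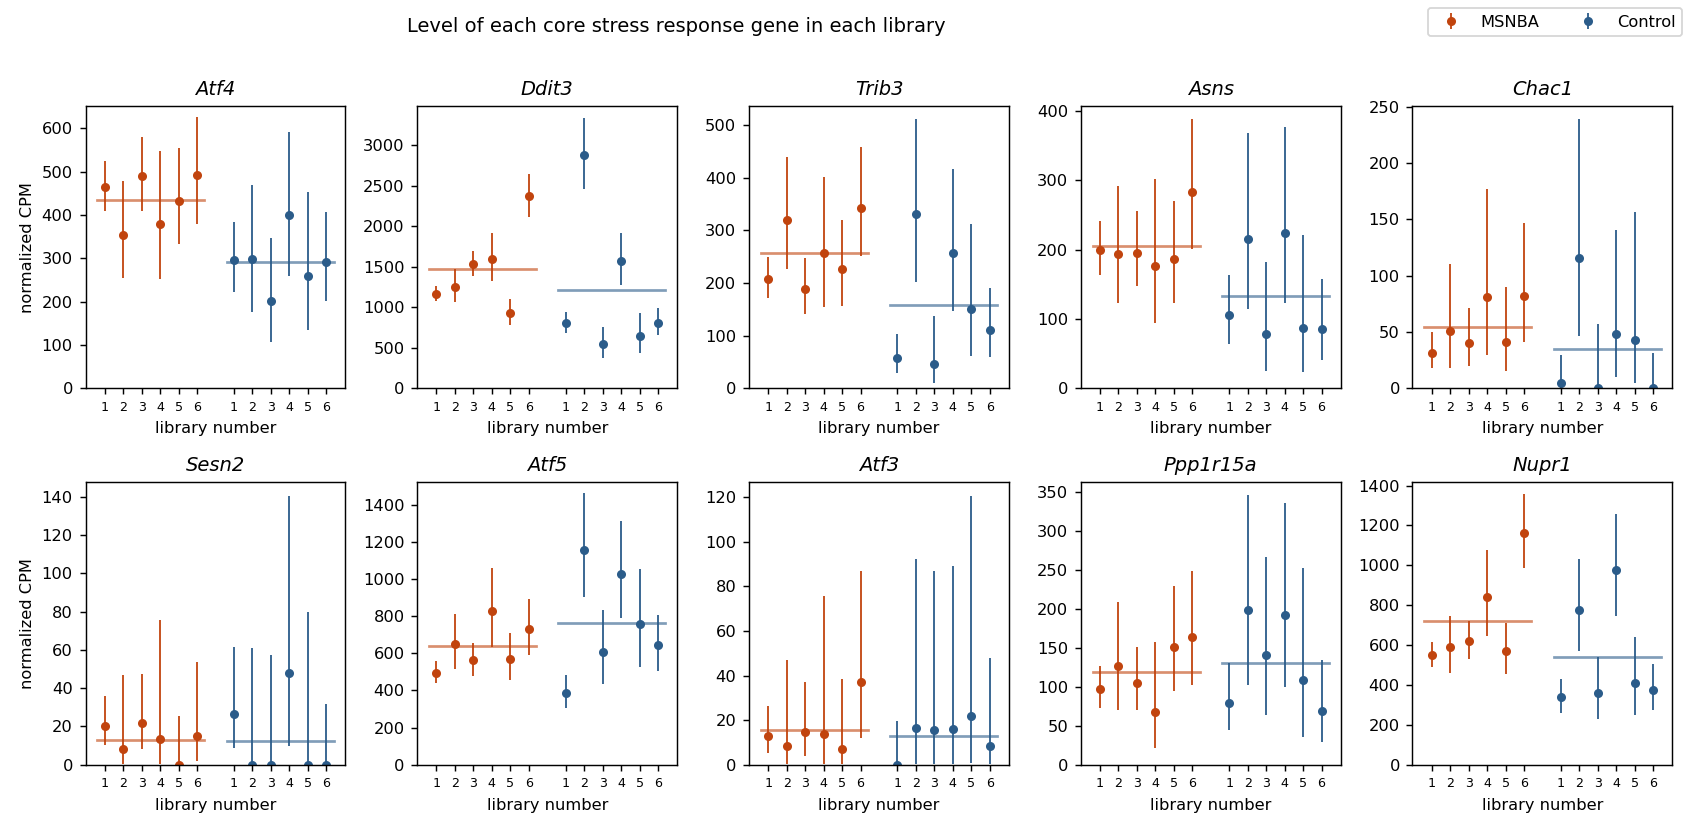
Normalized CPM of each gene (linear axis from 0) in MSNBA libraries 1 to 6, left, and Control libraries 1 to 6, right, with exact 95% Poisson intervals as bars and group means as lines. Atf4 lies at 354 to 492 in MSNBA and 203 to 401 in Controls, whereas Ddit3 is highest in Control 2 at 2879.

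Counts of Ddit3 per count of Atf4 were 2.51, 3.55, 3.14, 4.21, 2.14 and 4.82 in MSNBA 1 to 6, against 2.71, 9.67, 2.69, 3.92, 2.50 and 2.79 in Control 1 to 6. Control 2 had the highest ratio, and its exact binomial 95% interval of 5.94 to 16.7 lay above those of Control 1, 3, 5 and 6, the highest of which ended at 5.55. It overlapped the intervals of MSNBA 4, MSNBA 6 and Control 4, which ended at 6.61, 6.38 and 6.35. In Control 2 the Atf4 level of 298 normalized CPM was close to that of Control 1, whereas its Ddit3 level was the highest of all. Atf3, a further bZIP factor that acts with Atf4 and Ddit3, did not pass the filter on low counts, with 19 counts over the MSNBA group and 5 over the Controls. Its levels were 12.8, 8.44, 14.5, 13.6, 6.88 and 37.3 normalized CPM in MSNBA 1 to 6, against 0, 16.5, 15.6, 16.0, 21.7 and 8.57 normalized CPM in Control 1 to 6. The groups overlapped. DESeq2 put the change, MSNBA over Control, at 0.58 on the log2 scale (SE 0.88, with an adjusted p = 0.999), and edgeR with no filter at 0.75 (SE 0.72, adjusted p = 0.745). Its 5 counts in MSNBA 6 made 37.3 normalized CPM, and the next MSNBA library had 14.5.

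Trib3, a pseudokinase that Ddit3 and Atf4 induce and that restrains Atf4, had the largest log2 fold change of the tested members. Its levels were 207, 321, 189, 257, 227 and 343 normalized CPM in MSNBA 1 to 6, against 58.2, 331, 46.8, 257, 152 and 111 normalized CPM in Control 1 to 6. The 6 MSNBA libraries lay above Controls 1, 3, 5 and 6, and the other two Controls lay inside the MSNBA range. The log2 fold change was 0.84 (SE 0.36, adjusted p = 0.480 by edgeR), with a 95% interval of 1.05-fold to 3.06-fold. The exact two-sided permutation test gave an unadjusted p = 0.0628. Without Control 2 and Control 4 the log2 fold change was 1.56 (SE 0.28, adjusted p = 0.00276 by edgeR) and past the threshold. Those Controls were left out by the outcome, so that call gives no independent evidence. Without Control 1 the log2 fold change was 0.51.

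Asns, the asparagine synthetase gene and a classic target of Atf4, measured 200, 194, 196, 176, 186 and 283 normalized CPM in MSNBA 1 to 6, against 106, 215, 78.0, 224, 86.7 and 85.7 normalized CPM in Control 1 to 6. The Controls fell into a lower set of 4 libraries and Control 2 and Control 4, which lay among the MSNBA libraries. The means were 206 ± 38.9 normalized CPM in MSNBA and 133 ± 68.2 normalized CPM in Controls (SD, n = 6 per group). The log2 fold change was 0.72 (SE 0.23, adjusted p = 0.228 by edgeR), with a 95% interval of 1.19-fold to 2.28-fold and an unadjusted p = 0.0455 in the exact two-sided permutation test. Without Control 2 and Control 4 it was 1.14 (SE 0.25, adjusted p = 0.0175 by edgeR), which passed. That fit called 0.13% of 3076 genes higher, 4 genes in all, and Trib3 and Asns were 2 of them. Control 2 and Control 4 had been left out because stress genes were high in them, so neither call is independent evidence.

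Nupr1, a small stress-induced chromatin-associated protein gene, measured 549, 591, 620, 840, 571 and 1163 normalized CPM in MSNBA 1 to 6, against 338, 778, 359, 978, 412 and 377 normalized CPM in Control 1 to 6. MSNBA 6 was the highest library, followed by Control 4. The log2 fold change was 0.46 (SE 0.32, adjusted p = 0.698 by edgeR), with 95% bounds of 0.843-fold and 2.23-fold. It was 0.27 without MSNBA 6, and 0.95 (adjusted p = 0.0535 by edgeR) without Control 2 and Control 4. Nupr1 lies inside the RefSeq long noncoding gene Gm39087, whose counts were not used here.

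Chac1 encodes an enzyme that degrades glutathione and is one of the most responsive Atf4 targets. It had 57 counts over the MSNBA libraries and 13 over the Controls, with at least 1 count in 6 and 4 libraries. Its levels were 31.2, 50.6, 39.9, 81.3, 41.3 and 82.0 normalized CPM in MSNBA 1 to 6, against 5.29, 116, 0, 48.1, 43.3 and 0 normalized CPM in Control 1 to 6. Control 2 was again the highest library, with 7 counts. Pooled over a group, the level was 44.1 normalized CPM in MSNBA (exact 95% Poisson interval 33.4 to 57.1) and 24.1 normalized CPM in Controls (12.8 to 41.3). The exact two-sided permutation test on log2 CPM gave a difference of 0.95 and an unadjusted p = 0.136. DESeq2 put the change, MSNBA over Control, at 0.81 on the log2 scale (SE 0.67, with an adjusted p = 0.999), and edgeR with no filter at 1.02 (SE 0.46, adjusted p = 0.602).

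Ppp1r15a (GADD34) brings a phosphatase to eIF2 and so ends the response. It measured 97.2, 127, 105, 67.8, 151 and 164 normalized CPM in MSNBA 1 to 6, against 79.3, 199, 140, 192, 108 and 68.6 normalized CPM in Control 1 to 6. Its groups overlapped over nearly their whole range, and the log2 fold change was -0.0034 (SE 0.27, adjusted p = 0.998 by edgeR), with a 95% interval of 0.686-fold to 1.45-fold. That value was 0.36 without Control 2 and Control 4. Ppp1r15a overlaps Tulp2 by 730 bases in RefSeq, but Tulp2 had 7 and 6 counts over the MSNBA and Control groups. Sesn2, a leucine sensor that restrains mTORC1, had 21 counts over the MSNBA group and 8 over the Controls, all 8 of them in Control 1 and Control 4. Its levels were 20.2, 8.44, 21.8, 13.6, 0 and 14.9 normalized CPM in MSNBA 1 to 6, against 26.4, 0, 0, 48.1, 0 and 0 normalized CPM in Control 1 to 6. Both groups held libraries at 0. By a floor of 3 counts, the count of 0 in Control 3 allows up to 46.8 normalized CPM there. DESeq2 gave Sesn2 a log2 fold change of 0.067 (SE 0.96), and a difference was not detectable at this depth.

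**Figure D3:**
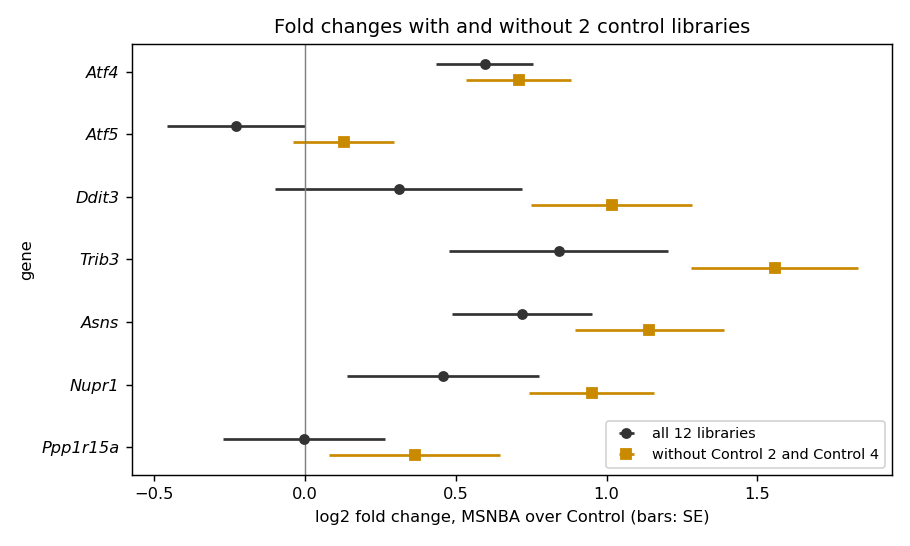
Log2 fold change of MSNBA over Control with its SE for the 7 tested genes, from all 12 libraries (circles) and without Control 2 and Control 4 (squares). All 7 squares lie right of their circles, from 0.13 for Atf5 to 1.56 for Trib3.

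In 5 of the 7 tested members, Atf4, Ddit3, Trib3, Asns and Nupr1, all 6 MSNBA libraries lay above Controls 1, 3, 5 and 6, as they did in 1.3% of all tested genes. The remaining 2 tested members, Atf5 and Ppp1r15a, had 1 and 2 MSNBA libraries above those 4 Controls. The median log2 fold change of the 7 without Control 2 and Control 4 was 0.95, against -0.0028 for all genes of that fit. Controls 1, 3, 5 and 6 were kept because stress genes were lower in them, and the background genes were not chosen that way. Both comparisons are thus descriptions and give no independent evidence.

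Promoters were searched for the letters of known elements in the 250 bases before each RefSeq start (assembly GRCm38.p6, which is mm10), on both strands. The ATF4-C/EBP composite element was searched as TGATGNAA, and 4 of the 10 members held it, Asns, Chac1, Atf3 and Nupr1, against 3.45% of 32851 promoters in the table and 1.72% of the promoters of tested genes. The cyclic AMP response element, searched as TGACGTCA, was found in Ppp1r15a, against 1.55% of all promoters. The endoplasmic reticulum stress element, searched as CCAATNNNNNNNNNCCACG, was found in 0 of the members, against 0.113% of all promoters. A match is a description of the letters and not a measured binding site. The 5 promoters with a match are shown because they place these letters before genes whose mRNA levels are given above. Capitals mark the match, which in Chac1, Atf3 and Nupr1 reads on the opposite strand, and each sequence runs 5′ to 3′ on the gene's strand.
Asns, chr6:7693214-7693243, minus strand: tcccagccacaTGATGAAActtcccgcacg
Nupr1, chr7:126625562-126625591, minus strand: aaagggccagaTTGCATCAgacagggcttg
Atf3, chr1:191183341-191183583, minus strand: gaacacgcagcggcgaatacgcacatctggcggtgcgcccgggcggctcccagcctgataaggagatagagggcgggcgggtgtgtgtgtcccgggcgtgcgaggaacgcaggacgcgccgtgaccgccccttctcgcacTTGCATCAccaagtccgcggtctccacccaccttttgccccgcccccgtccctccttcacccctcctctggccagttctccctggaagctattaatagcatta
Chac1, chr2:119350992-119351228, plus strand: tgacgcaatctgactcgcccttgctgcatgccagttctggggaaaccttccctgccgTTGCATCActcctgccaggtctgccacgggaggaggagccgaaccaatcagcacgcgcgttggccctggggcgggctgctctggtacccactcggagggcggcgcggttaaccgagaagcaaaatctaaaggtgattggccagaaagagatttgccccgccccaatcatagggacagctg
Ppp1r15a, chr7:45526269-45526329, minus strand: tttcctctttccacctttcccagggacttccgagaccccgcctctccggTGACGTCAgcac

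The match began 23 bases before the start in Asns, 110 bases before it in Nupr1 and in Atf3, 193 bases before it in Chac1 and 12 bases before it in Ppp1r15a. Asns and Nupr1 are shown for 30 bases only, since the match lies inside an exon of the GENCODE annotation. Of the 4 members with the composite element, Asns and Nupr1 had fitted log2 fold changes of 0.72 and 0.46, while Chac1 and Atf3 did not pass the filter on low counts. Ddit3, Trib3, Atf4, Atf5 and Sesn2 had no match to these letters in this window. For Trib3 the bases just after the RefSeq start were not found in its GENCODE transcripts, so its window is less certain.

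Levels were then followed across libraries. Over the 12 libraries the log2 CPM of Asns correlated with that of Atf4 at r = 0.83 and rho = 0.79 (permutation test, p = 0.00124, adjusted over 6 relations p = 0.00744 for r and 0.0215 for rho). Without Control 3 and Control 5, the libraries farthest from the median of Atf4, r was 0.69 and did not pass (permutation test, p = 0.0337, adjusted p = 0.202). That setting has fewer libraries and a narrower range of Atf4, so it cannot show what the call rests on. Within MSNBA r was 0.56 and within Control 0.76 (n = 6 libraries each, exact permutation test, adjusted p = 0.633 and 0.0333), but rho within Control, 0.94, had an adjusted p = 0.1 by the same exact test. The relations of Trib3 and Nupr1 to Atf4 had r = 0.67 and 0.66 (permutation test, adjusted p = 0.0442 for both), but rho = 0.58 and 0.68 did not pass (permutation test, adjusted p = 0.0787 and 0.0556). With Control 3 and Control 5 left out r was 0.44 and 0.52 (permutation test, adjusted p = 0.415 and 0.383). For Trib3 the sign turned within MSNBA, where r was -0.37. Ddit3 had r = 0.59 (rho = 0.64, permutation test, adjusted p = 0.0634), and r = 0.24 without Control 3 and Control 5 (permutation test, adjusted p = 0.609). Within MSNBA its r was 0.32 and within Control 0.62. Without Control 2 and Control 4, an alternative added after the data were seen, its r was 0.85 (permutation test, adjusted p = 0.00450). There r was 0.92 for Asns, 0.78 for Trib3 and 0.76 for Nupr1 (permutation test, adjusted p = 3.60e-04, 0.0197 and 0.0134). For Atf5 and Ppp1r15a r was -0.017 and 0.16 there, and -0.053 and 0.094 over the 12 libraries. Those Controls were left out by the outcome, so these values give no independent evidence.

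Against Ddit3, a choice made after the values were seen, Nupr1 had r = 0.87 and rho = 0.91, Asns r = 0.87 and rho = 0.83, and Trib3 r = 0.81 and rho = 0.89. The permutation test, adjusted over 5 relations, gave p = 7.50e-04, 7.50e-04 and 9.33e-04 for r. The other relations did not pass, with r = 0.57 for Atf5 and 0.42 for Ppp1r15a (permutation test, adjusted p = 0.0704 and 0.177). Without Control 2 and Control 3, the libraries farthest from the median of Ddit3, r was 0.92, 0.88 and 0.72 (permutation test, adjusted p = 0.00130, 0.00200 and 0.0237). Within MSNBA r was 0.90 for Nupr1, 0.73 for Asns and 0.50 for Trib3, and within Control it was 0.84, 0.93 and 0.85. Of these 6 values, that of Nupr1 within MSNBA had an adjusted p = 0.0417, with 0.0833 for its rho (exact permutation test, n = 6 libraries), and the others had adjusted p-values from 0.0833 to 0.431 by the same exact permutation test. The libraries share their depth and scaling between all genes.

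**Figure D4:**
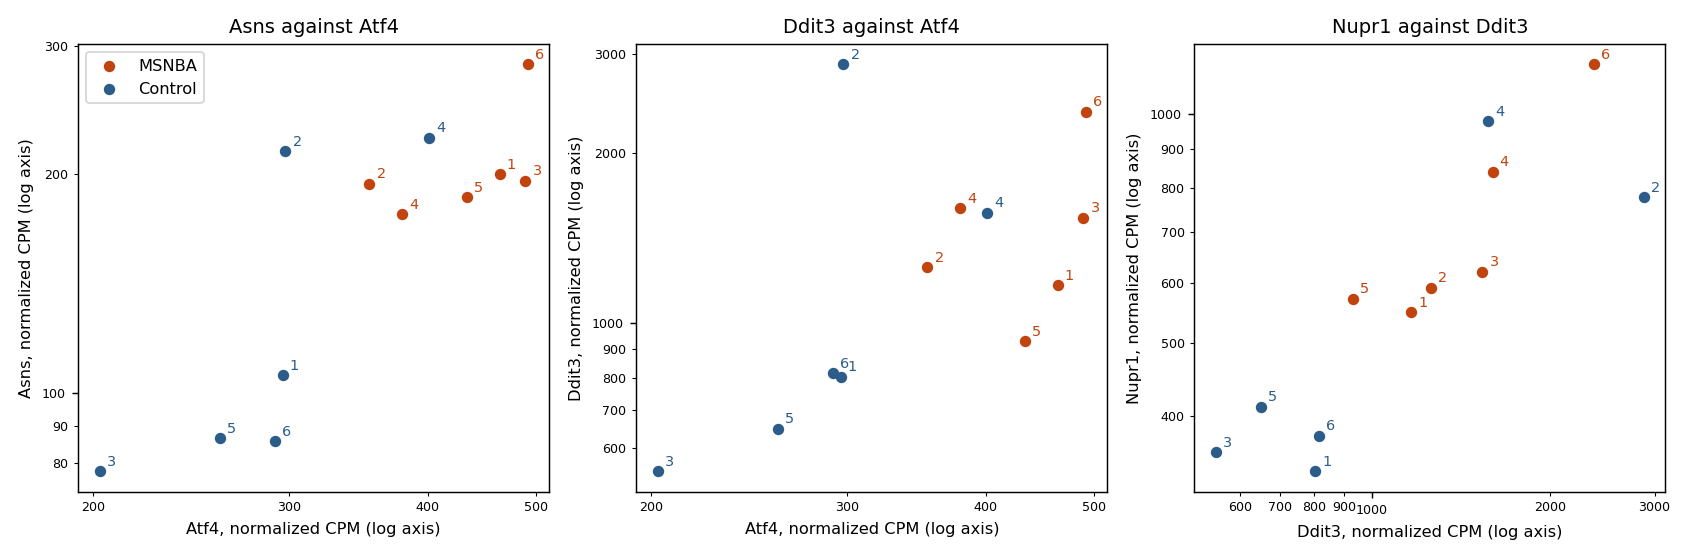
Normalized CPM (log axes) of Asns against Atf4, Ddit3 against Atf4 and Nupr1 against Ddit3, 1 point per library with its number, MSNBA in dark orange and Control in blue. Control 2 stands above the other libraries of like Atf4 level in the first and middle plots, with 2879 normalized CPM of Ddit3.

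Among 2605 other tested genes with a mean of at least 10 counts, the genes most like Ddit3 by Pearson r over the 12 libraries were Star, Ghitm, Mars1, Prrg2 and Tceal9. Star, which carries cholesterol into mitochondria for steroid synthesis, had r = 0.89 and rho = 0.90, with r = 0.83 without Control 2 and Control 4, 0.86 within MSNBA and 0.93 within Control. Star itself averaged 599 ± 178 normalized CPM in MSNBA and 558 ± 232 normalized CPM in Controls (SD, n = 6 per group). Mars1, the methionyl-tRNA synthetase gene, had r = 0.88 and rho = 0.89. Mars1 and Ddit3 overlap by 71 bases in RefSeq, and the part of shared reads in this likeness was not tested. Ghitm, a mitochondrial membrane protein gene, had r = 0.88, Prrg2 r = 0.87 and Tceal9 r = 0.85.

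The genes most like Atf4 were other ones: Cope, a subunit of the COPI vesicle coat, with r = 0.87 (rho = 0.87), Ppp2r5a, a regulatory subunit of protein phosphatase 2A, with r = 0.87 (rho = 0.85), Oaz1-ps, Hspa9 and Scd2. Oaz1-ps is a pseudogene close in sequence to Oaz1, so its counts are uncertain. Hspa9, the mitochondrial HSP70 gene, had r = 0.84, with r = 0.84 within MSNBA and 0.66 within Control. Scd2, a fatty acid desaturase gene, also had r = 0.84, but r was 0.14 within MSNBA and 0.88 within Control. These are the highest of many values and are given as a description.

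The wider pathway was described from 10 lists. By edgeR, 0 listed genes passed the threshold over all genes, in either direction, and DESeq2 and limma-voom called 0 of all genes. Beside the counts at an unadjusted p under 0.05 stand 4.17% of all tested genes higher and 4.78% lower, and of all 2614 tested genes 1269 had a log2 fold change above 0. Among the sensors and machinery of eIF2, 2 of 19 genes were tested, the eIF2 subunit genes Eif2s1 (log2 fold change 0.13, SE 0.48) and Eif2s2 (0.043, SE 0.13), with 0 at an unadjusted p under 0.05. Of the bZIP partners and relatives of Atf4, 6 of 22 were tested, with a median log2 fold change of 0.0043. Cebpa, a C/EBP factor of differentiated cells, measured 415 ± 45.4 normalized CPM in MSNBA and 607 ± 76.0 normalized CPM in Controls (SD, n = 6 per group; log2 fold change -0.54, SE 0.14, adjusted p = 0.101 by edgeR). It was the 1 gene of the list that was lower at an unadjusted p under 0.05, against 4.78% of all genes. Mafg, a small Maf partner, had the highest value of this list at 0.34 (SE 0.25).

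Other Atf4 targets were described in 4 lists. For amino acid uptake, 6 of 11 transporter genes were tested, all 6 had log2 fold changes above 0 and the median was 0.28, against -0.0082 for all genes, or 0.36 without Control 2 and Control 4. At an unadjusted p under 0.05, 1 of them was higher (4.17% of all genes), Slc1a5, a glutamine transporter gene. It measured 133 ± 52.0 normalized CPM in MSNBA and 61.1 ± 32.5 normalized CPM in Controls (SD, n = 6 per group; log2 fold change 1.08, SE 0.29, adjusted p = 0.104 by edgeR). In Control 2 it stood at 16.5 normalized CPM, unlike Ddit3, which was highest there. Slc7a5, a transporter of large neutral amino acids, had the lowest value at 0.018 (SE 0.14).

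For serine, one-carbon, proline and sulfur metabolism, 6 of 13 genes were tested, with 5 values above 0 and a median of 0.078, and 0 had an unadjusted p under 0.05. The median was 0.35 without Control 2 and Control 4. Cbs, which starts transsulfuration, had the highest value at 0.38 (SE 0.23) and Gpt2, an alanine aminotransferase gene, the lowest at -0.32 (SE 0.19). For aminoacyl-tRNA synthetases, 9 of 12 were tested, 6 values were above 0, the median was 0.21 (0.32 without Control 2 and Control 4) and 0 had an unadjusted p under 0.05. They ran from -0.15 (SE 0.13) for Sars to 0.48 (SE 0.25) for Wars. For growth control, secretion and cell death, 8 of 20 were tested, with 7 values above 0 and a median of 0.23. Gadd45a, a DNA damage and stress gene, had 0.59 (SE 0.27, adjusted p = 0.494 by edgeR) and Vegfa, an angiogenic factor gene, -0.49 (SE 0.19, adjusted p = 0.373 by edgeR), and these were the members at an unadjusted p under 0.05.

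The remaining stress programmes had list medians from -0.038 to 0.046. The Atf6 and Xbp1 arms of the endoplasmic reticulum response, which raise chaperones and degradation factors, had 16 of 23 genes tested and a median of 0.046, where unadjusted p-values below 0.05 went to 2 higher genes (4.17% of all genes) and 1 lower (4.78%). The 2 higher were Sec61b, a subunit of the translocation channel, with 0.43 (SE 0.16) and Hspa5, the chaperone BiP, with 0.37 (SE 0.12), and the lower one was Calr, the chaperone calreticulin, with -0.22 (SE 0.10). Hspa5 and Calr were named after their values were seen. The lowest value was that of Derl2, a degradation factor gene, at -0.32 (SE 0.28), which was not among them. The heat shock list had 4 of 12 tested and a median of 0.038, running from -0.26 (SE 0.17) for Dnaja1 to 0.25 (SE 0.13) for Hsp90aa1. Mitochondrial chaperones and proteases had 6 of 9 tested and a median of -0.038, which turned to 0.098 without Control 2 and Control 4. At an unadjusted p under 0.05, 2 were higher (4.17% of all genes), Hspa9 and Hspe1, of which Hspe1 was named after its value was seen. Values ran from -0.29 (SE 0.22) for Trap1 to 0.42 (SE 0.14, adjusted p = 0.249 by edgeR) for Hspa9. The Nrf2 antioxidant list had 9 of 12 tested and a median of 0.033, with 2 lower at an unadjusted p under 0.05 (4.78% of all genes), and ran from -0.29 (SE 0.13) for G6pdx to 0.31 (SE 0.28) for Hmox1. Whether any list differed from another was not tested.

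**Figure D5:**
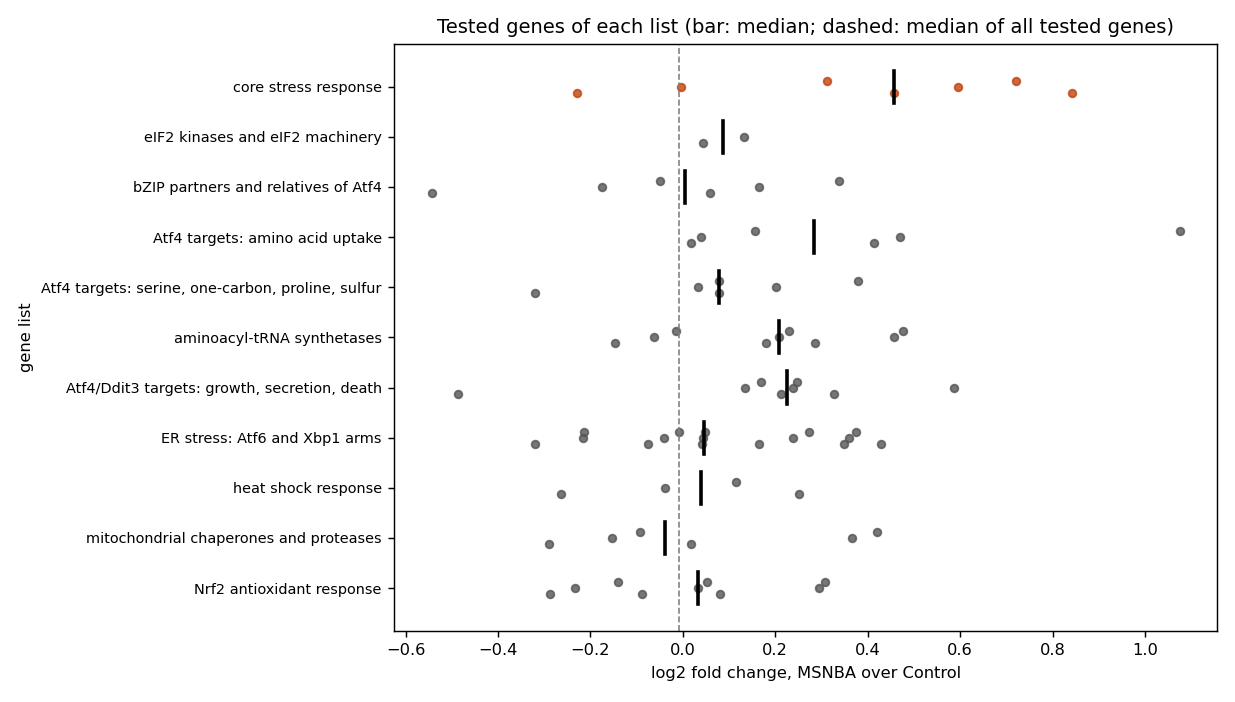
Log2 fold change of MSNBA over Control of each tested gene (points) in the core stress genes, in orange, and 10 further lists, in grey, with list medians as bars and the median of all tested genes dashed. The core genes have a median of 0.46, and the other medians run from -0.038 to 0.28.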

How the data were processed

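PolyA RNA of mLTC-1 cells was sequenced from tagmented libraries, 6 MSNBA and 6 Control by the labels. The authors deposited raw counts per gene symbol. BWA 0.7.4.4 and mm10 are named per the submitters' processing notes, and the name of the table implies unique alignments on RefSeq genes, counted by molecular identifier. The counting program, and whether it used strand, is not given in the sources used here.

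Counts were filtered by filterByExpr, scaled by TMM and tested with edgeR 4.0.16 (robust quasi-likelihood F test, intercept and treatment, Benjamini-Hochberg over 2614 genes, threshold 0.05) in R 4.3.3. The SE is the log2 fold change over the square root of F. Alternatives used DESeq2 1.42.0, limma 3.58.1, other scalings and filters, a replicate block, depth and left-out libraries. Permutation tests used SciPy 1.17.1, with log2 CPM at a prior count of 2. The scripts were tested on simulated data.

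Members and lists were chosen with earlier results of these data known. Genes named are the members, in each list the genes of highest and lowest log2 fold change whose mean count reached 10, and the 5 genes most like Ddit3 and Atf4. Relations to Ddit3, and relations and likeness without Control 2 and Control 4, were added after the data were seen. Promoters and positions are from RefSeq (GRCm38.p6).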

Additional observations from a re-analysis of the deposited data

Results flagged for a closer look

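In 20 groups of 6 libraries, 10 genes in each treatment, 2 held a library set apart from the others by a gap past Dixon's 95% critical value, where chance gives about 1. Asns measured 283 normalized CPM in MSNBA 6, and the next MSNBA library had 200. Atf3 measured 37.3 normalized CPM in MSNBA 6, from 5 counts, and the next MSNBA library had 14.5.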

How the results depend on the processing

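With 1 library left out, members past the threshold stayed at 0 higher and 0 lower in each of 12 fits, and the median of the 7 tested members ran from 0.27 to 0.68. The log2 fold change ran from 0.52 to 0.68 for Atf4, 0.13 to 0.74 for Ddit3, 0.51 to 1.18 for Trib3, 0.60 to 0.90 for Asns, -0.42 to -0.067 for Atf5, 0.27 to 0.70 for Nupr1 and -0.21 to 0.15 for Ppp1r15a, whose sign turned. Without Control 2 and Control 4, 2 members were higher, Trib3 (1.56) and Asns (1.14), the median was 0.95, and Atf5 (0.13) and Ppp1r15a (0.36) turned sign. That choice was made from the outcome, so these calls are not independent evidence. Without a low-count filter 2 members were higher by edgeR, Atf4 (0.74, adjusted p = 0.0474) and Trib3 (0.98, adjusted p = 0.0320). In that fit, however, the median of the 2614 genes tested in the main fit moved to 0.14. The sign of Ppp1r15a also turned without that filter (0.14), by limma-voom (0.074), with library size alone (0.0046), with upper-quartile factors (0.015), with the replicate block (0.011) and with depth (0.33), and that of Atf5 with depth (0.20). The cause was not tested. The stricter filter dropped Ppp1r15a.

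Over all genes, the calls were 8 higher and 7 lower without the filter, 0 and 0 by DESeq2, limma-voom and with depth, 4 and 3 without Control 2 and Control 4, and 0 to 1 higher and 0 to 5 lower with 1 library left out. Whether replicate numbers pair the samples was not settled, as 3 of 6 same-number pairs had a residual correlation over 0.1 (range -0.23 to 0.48). The main fit used no pairing, and the replicate block gave 0 members and 0 and 3 genes in all.

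Of the correlations with Atf4, Asns had r = 0.69 without the 2 farthest libraries and 0.56 within MSNBA. Nupr1 had 0.52, 0.21 within MSNBA and 0.72 within Control, and Trib3 had 0.44, -0.37 and 0.66. Atf5 had 0.39 within Control, and Ddit3 had 0.24 without the 2 farthest, 0.32 within MSNBA and 0.85, which passed, without Control 2 and Control 4. The permutation tests of the differences between groups kept their side of the threshold at a prior count of 0.5. Depth limits Chac1, Sesn2 and Atf3.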
